A study of Homo sapiens with 65 samples.

Results

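A set of 10 genes that the adult or fetal liver uses to load the blood plasma with protein was followed through human left-ventricular cardioids: AFP, APOB, FGA, FGB, FGG, APOA1, APOA2, TTR, ALB and SERPINA1. They are 10 of the 58735 genes in the deposited count table. AFP, APOB and FGB were chosen by measured values, their fall under hyaluronidase at day 7.5, and the other 7 because they are secreted liver-type proteins of the same kind. The hyaluronidase values of day 7.5 are therefore given as a description without a test, and tests are given for other days and for the genotype libraries, which the choice did not use. Cardioids are self-organising heart-like aggregates, here grown from WTC-11, an established human line of induced pluripotent stem cells.

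The genotype arm has 41 libraries: wild-type lines (WT) and clones with the genotype label HAS2-KO (KO), none given enzyme, at days 1.5, 2.5, 4.5 and 7.5. The WT libraries are of lines named WT, WT_TU, cl43_WT_UT and TNT2, and the KO libraries of clones cl4, cl14, cl46 and cl51, with 5 WT and 6 KO libraries at day 1.5, 6 of each at days 2.5 and 4.5, and 3 of each at day 7.5. The enzyme arm has 24 libraries, all with the genotype label WT: untreated, given hyaluronidase from day 1.5 until collection (HAse1.5), or from day 2.5 until collection (HAse2.5). Untreated and HAse1.5 were collected at days 2.5, 4.5 and 7.5, and HAse2.5 at days 4.5 and 7.5, in 3 lines called TNNI1, WT and TNNT2 in the labels, with 1 library of each line a group. Each library pooled 8 cardioids. At each of days 1.5, 2.5 and 4.5 clone cl4 gave the KO libraries cl4_R1, cl4_R2 and cl4_R3. Lines WT and WT_TU also recur within WT groups. No fit of the genotype arm had a term for clone or line, so its SDs and tests take each library as separate. At day 7.5 the KO group had 3 libraries of 2 clones (cl4_R2, cl4_R3 and cl14_R1), so it rests on few clones, and the WT group had WT_R1, WT_R2 and WT_TU_R2. HAS2 encodes a hyaluronan synthase, and hyaluronidase digests the hyaluronan polymer of the extracellular matrix.

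Liver-type secretion is a shared programme: hepatocytes and the endoderm of the yolk sac make carrier proteins, apolipoproteins, clotting factors and protease inhibitors and release them. AFP is the fetal counterpart of serum albumin and a classical product of yolk sac endoderm and fetal liver. APOB is the structural protein of low-density and very-low-density lipoprotein particles, which are loaded with lipid by MTTP, and heart muscle is also known to express both genes. HNF4, FOXA and C/EBP factors are among the textbook regulators of liver-type promoters.

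The 3 fibrinogen chain genes lie side by side on chromosome 4 (GRCh38, GENCODE 29): FGB at 154562956 to 154571086, FGA at 154583126 to 154590766 and FGG at 154604134 to 154612967, with gaps of 12039 and 13367 bases. ALB (chromosome 4, 73397114 to 73421412) and AFP (73431138 to 73456174) are neighbours of 1 gene family, 9725 bases apart. APOB (chromosome 2, 21001429 to 21044073) overlaps AC010872.1 on the other strand, and APOA1 (chromosome 11, 116835751 to 116837950) overlaps APOA1-AS. The strand setting of the counting is not given in the sources used here, so reads of these pairs cannot be told apart. The other members are APOA2 on chromosome 1 (161222292 to 161223631), TTR on chromosome 18 (31557010 to 31599021) and SERPINA1 on chromosome 14 (94376747 to 94390693), all protein coding.

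Promoter windows, 250 bases before to 50 bases after an annotated start, were found for 7 of the 10 genes in the RefSeq table (GRCh38.p14). They are shown because most of the genes below, ALB apart, tended to be high in the same libraries. The motif GTTAAT, known from liver-type promoters and read on both strands, occurred in the windows of AFP, ALB, FGA, FGB and SERPINA1, 5 of 7 genes, against 8.27% of the 27305 genes with windows of this length. Of these, 4 windows follow, 5′ to 3′ on the strand of the gene, with GTTAAT or its reverse complement in capitals. AFP is chr4:73435971-73436270 (+), ALB chr4:73404037-73404336 (+), FGB chr4:154562730-154563029 (+) and SERPINA1 chr14:94388553-94388852 (−), 1 of 2 starts listed for that gene.
AFP: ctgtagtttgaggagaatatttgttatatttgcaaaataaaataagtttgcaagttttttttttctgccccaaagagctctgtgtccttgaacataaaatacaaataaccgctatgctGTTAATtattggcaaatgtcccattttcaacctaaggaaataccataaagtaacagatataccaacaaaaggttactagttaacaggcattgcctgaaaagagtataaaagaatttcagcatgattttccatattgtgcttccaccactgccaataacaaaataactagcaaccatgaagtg
ALB: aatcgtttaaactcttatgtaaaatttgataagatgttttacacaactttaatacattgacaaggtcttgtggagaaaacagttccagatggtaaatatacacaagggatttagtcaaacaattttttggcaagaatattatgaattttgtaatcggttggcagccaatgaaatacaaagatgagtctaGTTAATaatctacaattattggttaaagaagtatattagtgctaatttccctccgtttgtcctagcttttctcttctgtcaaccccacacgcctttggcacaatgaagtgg
FGB: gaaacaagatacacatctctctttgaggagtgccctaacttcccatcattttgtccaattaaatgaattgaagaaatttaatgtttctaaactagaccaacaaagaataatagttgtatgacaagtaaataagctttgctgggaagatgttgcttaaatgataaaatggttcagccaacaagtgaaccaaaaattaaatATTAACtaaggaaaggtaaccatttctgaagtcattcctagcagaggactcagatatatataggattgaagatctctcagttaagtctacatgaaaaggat
SERPINA1: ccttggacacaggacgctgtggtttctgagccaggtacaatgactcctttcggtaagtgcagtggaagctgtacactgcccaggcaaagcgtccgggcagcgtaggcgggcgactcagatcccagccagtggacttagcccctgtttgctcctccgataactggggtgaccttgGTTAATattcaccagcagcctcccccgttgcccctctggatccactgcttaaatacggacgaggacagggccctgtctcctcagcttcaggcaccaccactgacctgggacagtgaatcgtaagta
The capitals begin 132 bases before the start site in AFP, 61 in ALB, 51 in FGB and 76 in SERPINA1. In FGA the match lay 52 bases before the start. The HNF4 site CAAAGTCCA matched none of the 7 genes, and 0.472% of all genes. The C/EBP motif TTGNNCAA matched FGA and FGB (6.8% of all genes), the FOXA motif TGTTTAC matched APOA2 (4.19%), and TATAAA matched AFP (14.0%), each read on both strands. No binding was measured here, so a match is a description of letters. ALB carries GTTAAT and had at most 8 counts in any group.

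Total counts ranged from 831062 to 3574843 per library over all 65, and from 1120719 to 1948529 over the 15 libraries of day 7.5, so 1 read stood for less than 1 CPM at day 7.5. Values are CPM, reads of a gene per 1000000 counted reads of its library, and intervals and bounds cover counting error only. HAS2 was read at 93.9 to 913 CPM in the 21 KO libraries and at 87.0 to 869 CPM in the 20 WT libraries, and where the KO edit lies is not given in the sources used here, so these 3′ reads do not check the KO labels. The markers went with the cardiac label: TNNT2, a troponin of heart muscle, lay between 2676 and 7240 CPM in all 15 libraries of day 7.5. Blood markers (8 genes) summed to at most 6.91 CPM there.

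At day 7.5 AFP was read in every untreated library and in 1 of 6 enzyme-treated libraries. It stood at 83.9, 18.5 and 9.64 CPM in the untreated TNNI1, WT and TNNT2 lines, at 0, 0 and 0 under HAse1.5, and at 0, 0 and 0.65 under HAse2.5, where the last is a single read. The untreated library of line TNNI1 was the highest, and the treated and untreated groups did not overlap. The untreated mean was at least 50.4-fold that of HAse1.5 (136 counts against 0, with 3 counts over the group as the floor). Against HAse2.5 the ratio was 150-fold, with a 95% exact counting interval of 26.5 to 5983. Without the TNNI1 untreated library these came to at least 19.0-fold and to 64.3-fold, and without the HAse2.5 TNNT2 library, which held the single read, to at least 36.5-fold.

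FGB, the beta chain of the clot protein fibrinogen, followed the same order. The untreated libraries held 48.2, 17.2 and 2.23 CPM, the HAse1.5 libraries 0, 0 and 2.09 CPM, and the HAse2.5 libraries 0 in all 3. The TNNT2 line had 3 reads of FGB both untreated and under HAse1.5, so in that line the levels (2.23 and 2.09 CPM) barely differed. Untreated was 28.1-fold HAse1.5 (95% exact counting interval 9.30 to 139) and at least 33.5-fold HAse2.5, and without the TNNI1 untreated library 13.9-fold and at least 14.5-fold. FGA, the alpha chain, was at 10.7, 3.19 and 0 CPM untreated and at 0 in all 6 treated libraries, at least 6.26-fold and 6.89-fold lower, and without the TNNI1 untreated library at least 2.16-fold and 2.37-fold. FGG, the gamma chain, was read in 1 untreated library only, TNNI1, at 6.25 CPM (7 counts), and in no treated library.

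APOB was the member with most reads among those chosen for their fall. Untreated libraries gave 215, 23.0 and 42.3 CPM, HAse1.5 libraries 6.52, 0 and 5.58 CPM, and HAse2.5 libraries 0.69, 2.01 and 0.65 CPM. All 6 treated libraries lay below all 3 untreated ones. Mean APOB was 93.4 ± 106 CPM untreated, 4.03 ± 3.52 under HAse1.5 and 1.12 ± 0.77 under HAse2.5 (SD, n = 3 each), a ratio of 23.2 and 83.4. Leaving out the TNNI1 untreated library brought the ratios to 8.09 and 29.1.

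The other apolipoproteins split. APOA1, the main protein of high-density lipoprotein, kept most of its level at day 7.5: 106, 48.5 and 119 CPM untreated, 58.7, 41.7 and 69.7 under HAse1.5, and 82.4, 41.6 and 70.7 under HAse2.5. These groups overlapped, and the ratios of means were 1.61 and 1.41, although each treated library lay below the untreated library of its own line. APOA2, its smaller partner in high-density lipoprotein, read 67.8, 7.02 and 17.1 CPM untreated, 1.63, 0 and 9.76 under HAse1.5, and 0.69, 0 and 2.62 under HAse2.5. Its HAse1.5 group overlapped the untreated one through the TNNT2 line (9.76 CPM), and its HAse2.5 group did not. The APOA2 ratios of means were 8.07 and 27.8, and 3.17 and 10.9 without the TNNI1 untreated library. Without the treated TNNT2 library they were 35.7 and 80.0.

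Of the remaining carriers and inhibitors, SERPINA1 (alpha-1 antitrypsin, which restrains neutrophil elastase) stood at 43.7, 5.11 and 1.48 CPM untreated and at no more than 0.70 CPM under HAse1.5 and 1.38 CPM under HAse2.5, with 1 and 2 counts in all. Its ratios were 59.2 (interval 10.2 to 2379) and 32.6 (8.64 to 276), and 13.9 and 7.65 without the TNNI1 untreated library. TTR, which carries thyroid hormone and retinol-binding protein, was at 13.4, 3.19 and 5.19 CPM untreated, 0.82, 0.72 and 3.49 under HAse1.5, and 0 in all HAse2.5 libraries, 4.34-fold and at least 10.8-fold lower. Without the TNNI1 untreated library the TTR ratios were 2.51 and at least 6.24, and without the HAse1.5 TNNT2 library the first was 8.76. ALB had at most 3 counts in each of the 3 groups, so no ratio is given.

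Counted over the list, 4 of 10 members had every HAse1.5 library below every untreated library at day 7.5 (AFP, APOB, FGB and SERPINA1), and 6 of 10 did under HAse2.5, with APOA2 and TTR added. Over the 12748 genes tested in the enzyme arm, 6.9% and 7.37% were lower in this way. Nothing is read from these shares because this contrast chose the genes. Both treated groups are set against the same 3 untreated libraries. Within lines, 7 of 10 members were lower in all 3 lines in each treated group. FGB is counted among them though its TNNT2 line had 3 reads both untreated and under HAse1.5. No share over all genes was taken for this within-line rule, and nothing is read from its count either. No ratio above turned its direction when any 1 library was left out or when TMM-scaled library sizes were used. ALB and FGG did not pass the count filter of either arm, nor FGA, TTR and SERPINA1 that of the enzyme arm, so they have values and no test there.

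**Figure D1:**
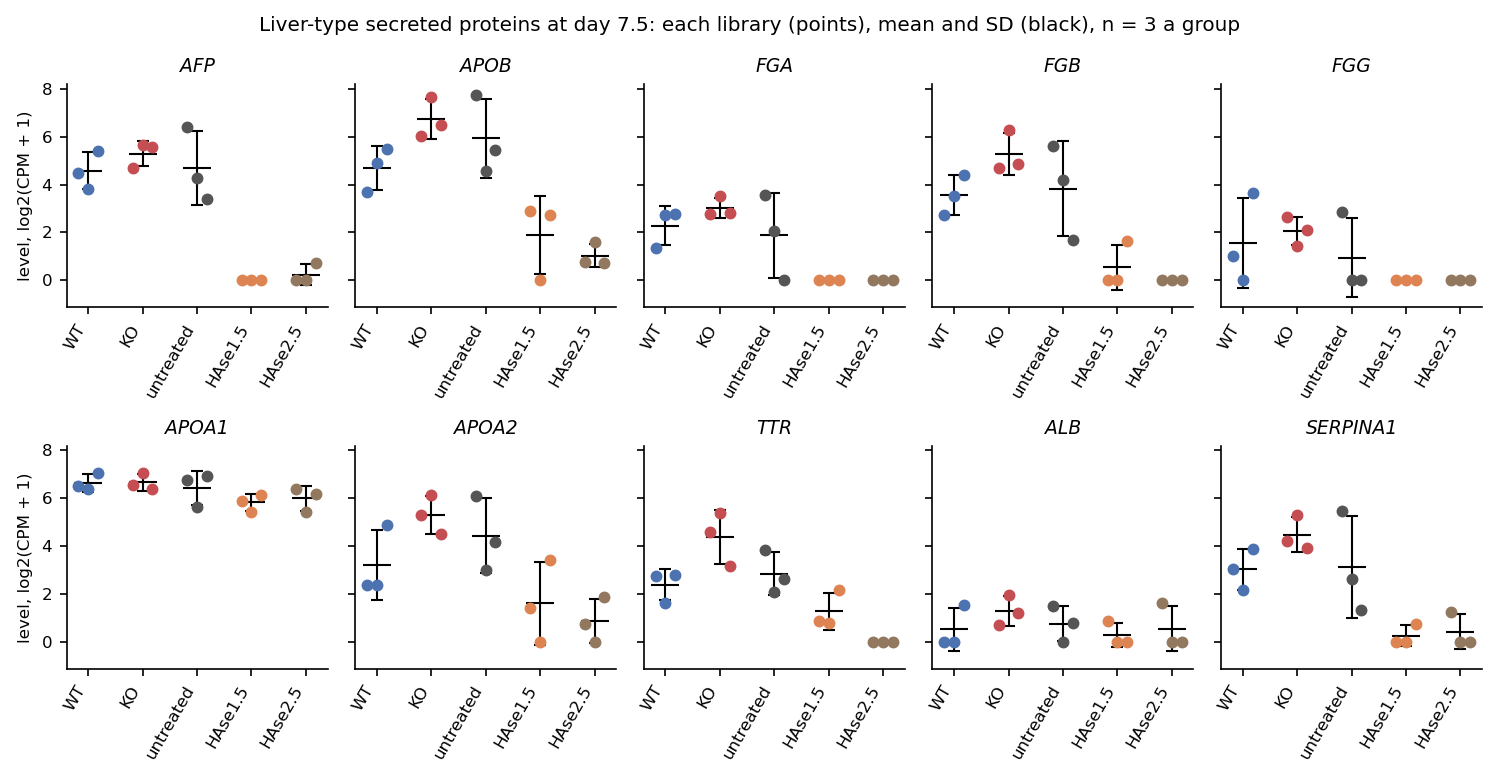
Levels of the 10 genes in the 15 libraries of day 7.5 as log2(CPM + 1) on the vertical axis, by group on the horizontal axis, with 1 point a library and the group mean and SD in black (n = 3). AFP sits at 0 in 5 of 6 enzyme-treated libraries, APOA1 overlaps between untreated and treated groups, and the highest untreated point of AFP, APOB, FGB and SERPINA1 is the TNNI1 line.

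Markers of other cell types are given beside these values. Because each library is a pool, fewer cells of a type and less RNA per cell cannot be told apart. The 11 endoderm markers other than TTR summed to 129 to 238 CPM in untreated libraries at day 7.5, 78.1 to 88.0 under HAse1.5 and 75.8 to 110 under HAse2.5. CLDN6, a tight junction gene, alone gave 61.9 to 167 CPM untreated, 3.26 to 10.1 under HAse1.5 and 19.0 to 67.1 under HAse2.5. Without CLDN6 as well, the other 10 summed to 67.0 to 93.5 CPM untreated and 68.3 to 84.8 under HAse1.5, which overlapped, and to 42.9 to 59.6 under HAse2.5. Of the 11, none was at 0 throughout the untreated group, 4 were under HAse1.5 and 6 under HAse2.5. FOXA1 and CDH1 were at 0 in all 6 treated libraries and reached no more than 0.89 CPM untreated. FOXA2, an endoderm factor and regulator of liver-type genes, read 1.78, 2.55 and 0 CPM untreated. The 10 cardiomyocyte markers summed to 62398 to 72688 CPM untreated, 31177 to 35358 under HAse1.5 and 39084 to 63120 under HAse2.5. The 10 gut epithelium markers, keratins and adhesion genes among them, summed to 634 to 749 CPM untreated, 300 to 355 under HAse1.5 and 386 to 563 under HAse2.5. The 7 epicardial markers summed to 119 to 186, 61.8 to 114 and 44.3 to 103 CPM. The part of these markers in the fall of the secreted proteins was not tested.

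The earlier libraries of the enzyme arm were not used to choose the genes, and they ask whether the difference was present before day 7.5. At day 4.5 APOA1 was the member that passed the test: it stood at 116, 33.8 and 36.9 CPM untreated, 8.07, 12.1 and 14.6 CPM under HAse1.5, and 53.9, 23.4 and 30.1 CPM under HAse2.5. All HAse1.5 libraries were below all untreated ones, while HAse2.5 overlapped. APOA1 fell under HAse1.5 by 2.52 on the log2 scale (SE 0.58, edgeR adjusted p = 0.0155), lower in 3 of 3 lines. The ratio of mean APOA1 was 5.38 under HAse1.5 and 1.74 under HAse2.5, and without the untreated TNNI1 library 3.05 and 0.986. APOA1 was 1 of 5 members tested, against 2.41% of all genes tested called lower and 1.07% higher. Without the untreated TNNI1, the HAse1.5 TNNI1 or the HAse1.5 TNNT2 library the APOA1 call was lost (edgeR adjusted p = 0.177, 0.104 and 0.0586), and likewise with only the groups compared in the fit (0.0568).

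AFP and FGB were already at 0 under enzyme at day 4.5, at low untreated levels. AFP had 4.09, 3.55 and 2.09 CPM in untreated libraries (13 counts in all) and 0 in each of the 6 treated libraries, so its treated level was at least 4.85-fold (HAse1.5) and 4.58-fold (HAse2.5) lower. FGB had 10.9, 2.66 and 4.87 CPM untreated (26 counts) and again 0 in all 6, at least 9.20-fold and 8.68-fold lower, and without the untreated TNNI1 library at least 5.63-fold and 5.31-fold. Neither gene passed the threshold: for AFP the edgeR adjusted p was 0.0962 under HAse1.5 and 0.317 under HAse2.5, and for FGB 0.0675 and 0.243. With the line as a replicate block, FGB passed under HAse1.5 (edgeR adjusted p = 0.043). Both genes entered these fits through other groups, the untreated libraries of day 7.5 that chose them among these: with only the day 4.5 groups compared, 2 of 10 members were tested and neither AFP nor FGB was among them. The p-values of AFP and FGB are thus given as a description. Without the low-count filter AFP, FGB, APOA1 and TTR, 4 of 10 members, were called lower under HAse1.5, and FGB alone under HAse2.5. The share of all genes called without the filter is not given here, so nothing is read from these counts.

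TTR gave 20.5, 6.22 and 1.39 CPM in untreated libraries at day 4.5, against 1 count over the HAse1.5 group and 2 over the HAse2.5 group. The TTR ratios were 43.4 (95% exact counting interval 7.35 to 1759) and 20.5 (5.30 to 175), and without the untreated TNNI1 library 15.7 (2.18 to 690) and 7.43 (1.54 to 70.6). FGA had 9 counts untreated (1.39 to 2.73 CPM), 0 under HAse1.5 and 2 under HAse2.5. APOB had 56.0, 13.3 and 29.2 CPM untreated, 24.2, 5.19 and 12.2 under HAse1.5, and 30.2, 11.7 and 6.41 under HAse2.5, and these groups overlapped (log2 fold changes −1.31 ± 0.77 and −1.08 ± 0.77 SE, edgeR adjusted p = 0.511 and 0.92). APOB was thus 2.37-fold and 2.04-fold lower in mean at day 4.5, beside 23.2-fold and 83.4-fold at day 7.5. Without the untreated TNNI1 library the day 4.5 ratios of APOB were 1.53 and 1.32. Without the TNNI1 library of the treated group they were 3.77 and 3.62. The difference between these days was not tested, since day 7.5 chose the gene. APOA2 read 49.1, 4.44 and 3.48 CPM untreated and 0 to 4.66 under HAse1.5, and did not pass (edgeR adjusted p = 0.321). Its ratios of means were 6.34 and 2.70, and without the untreated TNNI1 library 1.32 and 0.562, so that under HAse2.5 the direction turned. ALB was the exception in direction: it had 0 counts untreated and 5 and 4 counts under HAse1.5 and HAse2.5.

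At day 4.5, 5 of 10 members had all HAse1.5 libraries below all untreated ones (AFP, FGA, FGB, APOA1 and TTR), beside 8.87% of genes tested. Under HAse2.5 it was 2 of 10 (AFP and FGB), beside 7.43%, with ALB higher in all 3 (9.07% of genes tested). FGA, TTR and ALB did not pass the count filter that defines these shares, and AFP and FGB passed it through other groups. The counts of members and the shares are thus of unlike sets, and nothing is read from them. With edgeR 0 of 5 members were called under HAse2.5, 2 of 5 (AFP and FGB) had an unadjusted p under 0.05, and DESeq2 called 0 of 3, beside 0.0706% of all genes called higher and 0.149% lower. The same untreated libraries serve both comparisons. HAse1.5 set directly against HAse2.5 at day 4.5 gave no call with edgeR in 5 members or DESeq2 in 4, beside 0.0863% of all genes called higher and 0.275% lower. There APOA1 alone had an unadjusted p under 0.05 (log2 fold change −1.68, SE 0.59, edgeR adjusted p = 0.269). At day 2.5, 1 day after the enzyme was added, 0 of 5 members passed with edgeR or DESeq2, and APOA1 alone had an unadjusted p under 0.05, with 3.58 to 13.3 CPM untreated and 0 to 4.12 CPM under HAse1.5. Of all genes 0.251% were called higher and 0.894% lower there. Cardiomyocyte markers moved at day 4.5 too: 8 of 10 were called lower under HAse1.5 and 0 of 10 under HAse2.5, while 0 of 6 endoderm markers tested were called in either. The gut epithelium markers summed to 1232 to 1316 CPM untreated, 490 to 1084 under HAse1.5 and 378 to 504 under HAse2.5 at day 4.5, and KRT18 was lower under both (log2 fold changes −1.75 and −1.84, edgeR adjusted p = 0.000328 and 0.00428), 1 of 5 tested in each. Of the epicardial markers WT1 was lower under HAse1.5 (−7.30, edgeR adjusted p = 0.0478), 1 of 2 tested. The part of these markers in the APOA1 result was not tested.

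Without enzyme most of the 8 genes tested rose after day 2.5, as the plot of levels over the days shows, while ALB stayed at 3 to 4 counts over the WT groups of days 2.5, 4.5 and 7.5. Through day 2.5 all but APOA1 and APOB were at or near 0: FGA, FGG, TTR and SERPINA1 had 0 counts in every library of days 1.5 and 2.5. APOA1 was the first to rise, from 0.55 ± 0.36 CPM (SD, n = 5) at day 1.5 to 3.90 ± 1.29 CPM (SD, n = 6) at day 2.5 in WT (log2 fold change 2.35, SE 0.51, edgeR adjusted p = 0.000381). It rose likewise in KO (3.64, SE 0.60, edgeR adjusted p = 7.37e-06). APOA1 was 1 of 8 members called in each genotype, beside 15.0% and 17.2% of genes called higher. With the library-number run as a replicate block, or with DESeq2, APOB also passed in WT.

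From day 2.5 to day 4.5 most members rose. In WT 7 of 8 passed (AFP, APOB, FGA, FGB, APOA1, APOA2 and TTR, with edgeR), beside 18.6% of all genes called higher, and in KO 5 of 8 (APOB, FGB, APOA1, APOA2 and TTR), beside 15.6%. Members passed the count filter over all groups of the arm, those of day 7.5 among them. AFP and FGA had 8 and 12 counts over the WT group of day 4.5. With only the 2 groups compared, 1 member was tested in WT (APOA1) and 3 in KO (APOB, APOA1 and APOA2), and all were called. The counts of 7 and 5 are thus given as a description. TTR went from 0 counts in all WT and KO libraries of day 2.5 to 9.22 ± 7.04 CPM in WT and 13.5 ± 9.83 CPM in KO at day 4.5 (SD, n = 6 each), at least 39.3-fold and 42.4-fold. APOA1 reached 48.0 ± 13.2 CPM in WT and 32.6 ± 11.5 CPM in KO, and APOB 13.6 ± 10.7 and 24.4 ± 7.80 CPM. The WT calls of AFP were lost without WT_R2 or WT_TU_R2 of day 4.5 (edgeR adjusted p = 0.0598 and 0.0596), and that of FGA without WT_TU_R2 (0.117) and with DESeq2 (0.051). In WT at day 4.5 AFP was still low, with a lowest, median and highest value of 0, 0.31 and 1.95 CPM. The untreated enzyme-arm libraries gave a rise of APOB, FGB and APOA1 over the same days, 3 of 5 tested beside 12% of genes called higher. FGB entered this fit through other groups, the untreated libraries of day 7.5 that chose it among these. Its call and the count of 3 of 5 are thus given as a description. DESeq2 called APOB and APOA1, without FGB, as did edgeR with only the 2 groups compared, where 2 members were tested. In edgeR, leaving out 1 library ended the FGB call in 5 of 6 fits (all but the day 4.5 WT line) and the APOB call in 4 of 6 (all but the day 4.5 WT line and the day 2.5 TNNI1 line).

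AFP, FGB and SERPINA1 made a later step, between days 4.5 and 7.5. AFP reached 21.6, 13.3 and 40.7 CPM in WT_R1, WT_R2 and WT_TU_R2, from 0.74 ± 0.94 CPM (SD, n = 6), which is a rise of 5.10 on the log2 scale (SE 0.74, edgeR adjusted p = 4.34e-05). In KO it reached 24.7, 48.9 and 45.8 CPM in cl4_R2, cl4_R3 and cl14_R1, from 1.18 ± 1.78 CPM (5.14 on the same scale, SE 0.71, edgeR adjusted p = 5.5e-06). Every day 7.5 library of either genotype exceeded every day 4.5 library, whose highest was 4.70 CPM. The AFP calls held in all 14 alternative fits of each genotype, with a log2 fold change of 6.29 in KO when cl4_R3 of day 4.5 was left out. AFP entered these fits through the day 7.5 libraries, where it is high, so its p-values and calls are given as a description.

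SERPINA1 went from 2 counts over 6 WT libraries at day 4.5 to 7.18, 3.49 and 13.6 CPM in WT at day 7.5 (edgeR adjusted p = 0.00255), and from 0.71 ± 0.85 CPM to 17.6, 38.0 and 13.9 CPM in KO (edgeR adjusted p = 0.000281). DESeq2 did not call SERPINA1 in either (adjusted p = 0.285 and 0.254). The WT log2 fold change of 5.22 was 6.96 without WT_TU_R1 of day 4.5. FGB rose from 1.5 ± 1.25 to 12.1 ± 7.33 CPM in WT (log2 fold change 2.97, SE 0.74, edgeR adjusted p = 0.0222) and from 3.40 ± 4.08 to 42.9 ± 28.7 CPM in KO (3.75, SE 0.69, edgeR adjusted p = 0.000441). In WT the FGB call was lost without WT_R2 or WT_TU_R2 of day 7.5 (edgeR adjusted p = 0.0591 and 0.235). SERPINA1 and FGB also entered these fits through the day 7.5 libraries, so their p-values are given as a description.

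In all, 3 of 8 members rose over this step in WT, beside 1.25% of genes called higher, and 6 of 8 in KO (AFP, APOB, FGA, FGB, APOA1 and SERPINA1), beside 3.21%. AFP, FGA and SERPINA1 had at most 4.70, 5.01 and 2.015 CPM in any day 4.5 library of this arm. FGB had at most 3.13 CPM in WT at day 4.5, and in KO 1 library read 11.4 CPM and the next 3.67 CPM. AFP, FGA, FGB and SERPINA1 thus passed the count filter through the day 7.5 libraries where they are high. Their p-values over this step and the shares are given as a description. With only the 2 groups compared, 1 of 5 members tested was called in WT (AFP) and 5 of 7 in KO (all but FGA). FGA in KO (edgeR adjusted p = 0.0406) was lost when any 1 library other than cl4_R2 of day 4.5 was left out (0.0527 to 0.174), without the low-count filter (0.0676) and with DESeq2 (0.207). APOB in KO (log2 fold change 2.34, SE 0.52, edgeR adjusted p = 0.0029) was lost without cl4_R3 of day 7.5 (1.71, edgeR adjusted p = 0.119). APOA1 in WT just missed (log2 fold change 1.10, SE 0.32, edgeR adjusted p = 0.0526). It passed with RLE factors (0.0436), with the run as a replicate block (0.0208) and with DESeq2 (0.0154). TTR had a lower mean at day 7.5 than at day 4.5 in WT (4.52 ± 2.10 against 9.22 ± 7.04 CPM) and did not pass (edgeR adjusted p = 0.637). Whether the step differed between genotypes was tested directly: 0 of 8 members passed with edgeR, 0 had an unadjusted p under 0.05, and DESeq2 called 0 of 8, beside 0.0217% of all genes called with a larger and 0.138% with a smaller KO difference at day 7.5.

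**Figure D2:**
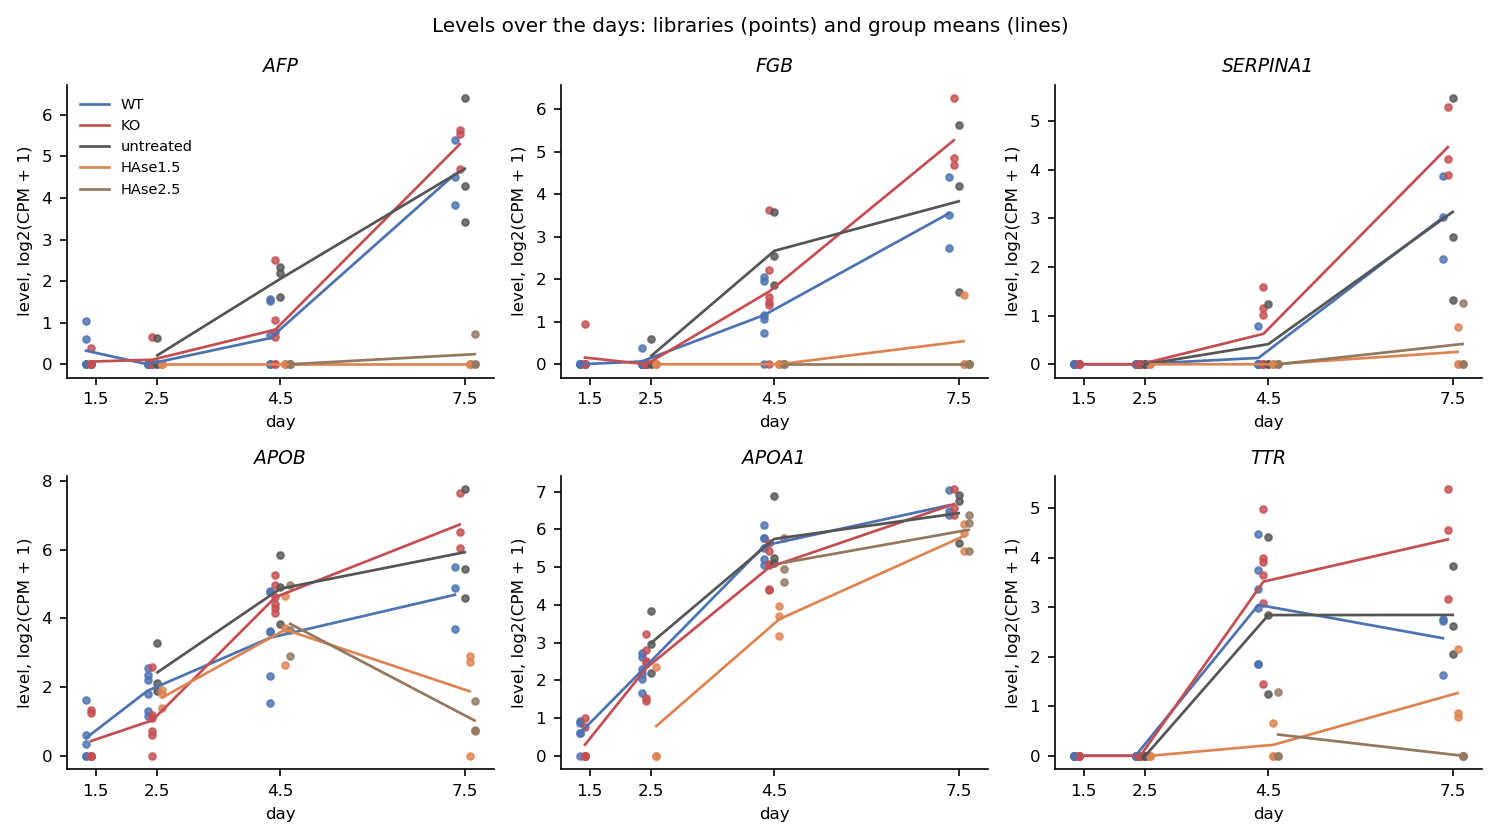
Levels of 6 of the genes, as log2(CPM + 1), by day for the 5 conditions: points are libraries and lines join group means, shifted slightly sideways. APOA1 rises first, TTR and APOB by day 4.5, and AFP, FGB and SERPINA1 mainly after day 4.5, while AFP stays at 0 to 0.65 CPM in all enzyme-treated libraries.

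Ordered by mean level over all 16 groups, AFP was highest in KO (39.8 ± 13.2 CPM), untreated (37.3 ± 40.5) and WT (25.2 ± 14.1) at day 7.5 (SD, n = 3 each), and these neighbours did not differ beyond their spread. A gap followed to untreated at day 4.5 (3.24 ± 1.04), and the 12 lower groups began with KO (1.18 ± 1.78) and WT (0.74 ± 0.94) at day 4.5. FGB ran in nearly the same order: 42.9 ± 28.7 in KO, 22.5 ± 23.4 in untreated and 12.1 ± 7.33 in WT at day 7.5, then 6.15 ± 4.27 in untreated at day 4.5. For APOB the order was KO at day 7.5 (118 ± 71.4), untreated at day 7.5 (93.4 ± 106), untreated at day 4.5 (32.8 ± 21.5), WT at day 7.5 (28.1 ± 16.1) and KO at day 4.5 (24.4 ± 7.80). The HAse1.5 and HAse2.5 groups of day 7.5 (4.03 and 1.12 CPM) stood below the treated groups of day 4.5 (13.9 and 16.1 CPM). Each of the first 5 APOB means differed from the next by less than the larger of their SDs.

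The genotype arm gives the same genes in clones labelled for loss of the enzyme that makes hyaluronan. At day 7.5 no member had all KO libraries below all WT libraries, and the 5 members APOB, FGA, FGB, TTR and SERPINA1 had every KO library above every WT library, beside 9.11% of genes tested (7.72% were lower in this way). APOB was at 65.1, 199 and 89.6 CPM in cl4_R2, cl4_R3 and cl14_R1 against 11.8, 28.6 and 44.0 CPM in WT. TTR was at 22.8, 40.9 and 7.96 CPM against 5.65, 2.09 and 5.82 CPM, and FGB at 24.7, 76.0 and 27.9 CPM against 5.65, 10.5 and 20.0 CPM. The library cl4_R3 was the highest of the 3 KO libraries for 9 of 10 members, all but FGG. The KO and WT groups of APOA1 (82.3 to 132 and 81.7 to 132 CPM) coincided.

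None of these differences passed the test. The log2 fold changes were 2.05 for APOB (SE 0.65, edgeR adjusted p = 0.284), 2.34 for TTR (SE 0.87, 0.594), 1.81 for FGB (SE 0.79, 0.793) and 1.79 for APOA2 (SE 0.80, 0.805). SERPINA1 had 1.48 (SE 0.81) and AFP 0.63 (SE 0.72), both with an edgeR adjusted p of 1. With edgeR 0 of 8 members were called, 4 of 8 (APOB, FGB, APOA2 and TTR) had an unadjusted p under 0.05, and DESeq2 called 0 of 6. Over all genes 0.058% were called higher and 0.29% lower. TTR passed when only the 2 groups compared were fitted (edgeR adjusted p = 0.0286). The only run of library numbers with both genotypes, run B, had 1 KO and 2 WT libraries, and there KO was above both WT values in 6 of 10 members (APOB, FGA, FGB, APOA2, TTR and SERPINA1), beside 33.0% of genes tested. For FGA the gap was small, 5.86 against 5.58 and 5.82 CPM. APOB in run B was 65.1 against 28.6 and 44.0 CPM.

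At day 4.5 KO and WT overlapped for all 10 members, beside 1.25% of genes tested with all KO libraries higher and 1.19% with all lower. With edgeR 0 of 8 were called and 2 (APOA1 and APOA2) had an unadjusted p under 0.05, and DESeq2 called 0 of 8. Their log2 fold changes lay on opposite sides, −0.62 (SE 0.28, edgeR adjusted p = 0.21) for APOA1 and 1.43 (SE 0.58, edgeR adjusted p = 0.167) for APOA2. At days 1.5 and 2.5 edgeR and DESeq2 called none of 8, and none had an unadjusted p under 0.05, beside 0.0% of all genes called in either direction at day 1.5 and 0.493% higher and 0.5% lower at day 2.5. Of all genes tested at day 4.5, 1.14% were called higher and 2.6% lower. Endoderm markers differed at that day: CDH1 (log2 fold change 2.64, edgeR adjusted p = 0.0112), CXCR4 (2.02, 0.0347) and EPCAM (1.85, 0.000722), adhesion and homing proteins of early endoderm, were higher in KO, 3 of 8 tested, and 4 of 10 cardiomyocyte markers (MYL7, MYH7, ACTN2 and MYBPC3) were lower. KRT18 (−1.58, edgeR adjusted p = 2.35e-06) and KRT8 (−1.34, 0.00136), epithelial keratins, were lower in KO. The sums of the 11 endoderm markers without TTR overlapped, at 108 to 394 CPM in WT and 164 to 220 CPM in KO, and without CLDN6 as well they lay at 79.7 to 130 and 138 to 171 CPM. At day 7.5, 0 of 8 endoderm markers tested were called. The sums of the 11 markers without TTR overlapped at day 7.5 too, at 86.7 to 112 CPM in WT and 102 to 136 CPM in KO. Without CLDN6 as well they lay at 42.7 to 57.9 and 77.0 to 99.6 CPM. FOXA2, 1 gene of this list, was at 9.76 to 12.7 CPM in KO against 2.05 to 3.88 CPM in WT at day 7.5. The part of these cells in the KO levels was not tested.

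**Figure D3:**
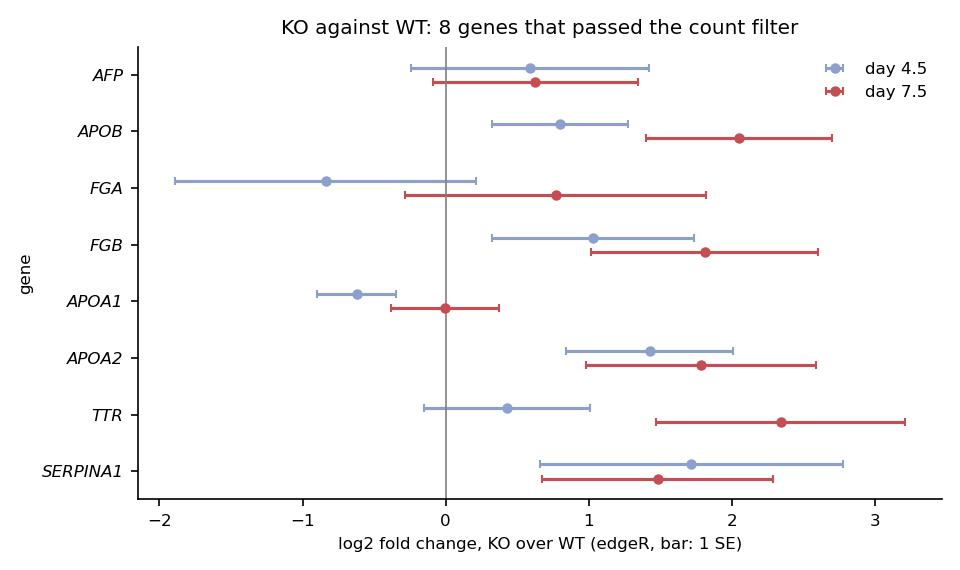
Log2 fold change of KO over WT from edgeR for the 8 genes that passed the count filter, with bars of 1 SE, at day 4.5 (6 and 6 libraries) and day 7.5 (3 and 3). APOB and TTR lie at 2.05 and 2.34 at day 7.5, APOA1 at 0, and none passed the threshold.

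The 4 wider lists of plasma proteins (61 further genes: clotting factors, apolipoproteins, carriers, and inhibitors with complement) were mostly silent. In the 65 libraries 14 of the 61 had no read, and 33 had at most 3 counts in every library. At day 7.5, 16 of the 61 had 10 or more counts over the untreated group, and 3 of these 16 were at 0 in all 6 treated libraries: AHSG, AMBP and ITIH2, picked out after their values were seen. AHSG (fetuin-A, an inhibitor of calcification made by fetal liver) was at 32.1, 2.55 and 5.19 CPM untreated. ITIH2, a heavy chain that is transferred onto hyaluronan, was at 21.4, 1.28 and 0.74 CPM. AMBP, precursor of bikunin, the light chain of the same inhibitor family, was at 5.35, 1.91 and 0.74 CPM. The 4 lists did not all move alike at day 7.5. The 14 carrier genes summed to 10.85 to 77.6 CPM untreated, 4.075 to 10.79 under HAse1.5 and 4.84 to 7.86 under HAse2.5. The 14 apolipoprotein genes summed to 130 to 151 CPM untreated, 112 to 135 under HAse1.5 and 102 to 126 under HAse2.5. The 16 inhibitor and complement genes summed to 37.0 to 58.0 CPM untreated, 53.8 to 76.0 under HAse1.5 and 59.5 to 74.0 under HAse2.5 at day 7.5, and the 17 coagulation genes to 11.1 to 39.3, 25.1 to 51.1 and 29.8 to 51.0 CPM. At day 4.5 SERPING1, the C1 inhibitor, was higher under HAse1.5 (log2 fold change 0.78, edgeR adjusted p = 0.0431), 1 of 8 plasma genes tested. AHSG, AMBP and ITIH2 were also read in KO at day 7.5, at 3.98 to 17.8, 3.98 to 9.76 and 3.32 to 8.06 CPM.

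TF, the iron carrier transferrin, was at 20.5, 3.19 and 4.45 CPM untreated and 0 to 1.44 CPM in treated libraries at day 7.5. It rose in KO from day 4.5 to day 7.5 (2.25 ± 1.79 to 27.9 ± 7.14 CPM, log2 fold change 3.71, SE 0.83, edgeR adjusted p = 0.00393), 1 of 14 plasma genes tested, while APOC1 fell (log2 fold change −1.47, edgeR adjusted p = 0.0191). In WT over the same step AGT, the source of angiotensin, rose (2.64, edgeR adjusted p = 0.0298), and APOC1 (−2.43, edgeR adjusted p = 0.000284) and SERPING1 (−1.84, edgeR adjusted p = 0.023) fell. APOE, named here after its values were seen, and APOC1, apolipoproteins that many tissues make, overlapped between untreated and treated libraries at day 7.5. APOE was at 20.0 to 47.9 CPM untreated and 13.2 to 49.1 CPM in the 6 treated libraries, and APOC1 at 9.64 to 26.8 and 9.78 to 21.6 CPM.

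Of 12 genes of lipoprotein assembly 9 were tested and 0 passed in any of the comparisons at day 4.5 or the steps to day 7.5. MTTP, which loads APOB with lipid, was at 8.92, 0.64 and 1.48 CPM untreated and 0 to 2.77 CPM in treated libraries at day 7.5, and at 3.25 to 9.78 CPM in KO against 1.94 to 2.79 CPM in WT. Among receptors and endocytosis genes LRP8, a receptor of the lipoprotein receptor family, was lower at day 4.5 in KO (−1.22 on the log2 scale, edgeR adjusted p = 0.0113) and under HAse1.5 (−1.89, edgeR adjusted p = 0.00946), while VLDLR rose under HAse1.5 (1.36, edgeR adjusted p = 0.021). LRP2 (megalin), which takes up filtered proteins, was higher in KO at day 4.5 (1.41, edgeR adjusted p = 0.0376). From day 4.5 to day 7.5 LRP2 fell in WT and KO (−4.91 and −4.08, edgeR adjusted p = 0.00266 and 0.000114), and LRP8 rose in KO (1.59, 0.00166).

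HNF4A, a master regulator of hepatocyte genes, was at 4.46, 1.28 and 0.74 CPM untreated at day 7.5, at 0 to 0.70 CPM in WT and at 0 to 7.48 CPM in KO. The 20 liver-type regulators together summed to 333 to 588 CPM untreated, 487 to 746 under HAse1.5 and 549 to 613 under HAse2.5 at day 7.5, and 11 of them were tested. At day 4.5 FOXA3 (log2 fold change 1.89, edgeR adjusted p = 0.0251) and HHEX (1.42, 0.0313), factors of foregut endoderm and early liver, were higher in KO, and RXRA was higher under HAse1.5 (0.81, edgeR adjusted p = 0.0214). PROX1 rose from day 4.5 to day 7.5 in WT (1.67, edgeR adjusted p = 0.00288) and KO (1.23, 0.0238), and FOXA3 fell in WT (−5.40, 0.0374). The 16 intracellular hepatocyte genes (enzymes and transporters) summed to 5.94 to 22.3 CPM untreated, 22.3 to 57.1 under HAse1.5 and 21.5 to 34.7 under HAse2.5, with 8 to 11 of the 16 at 0 in each of these groups.

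**Figure D4:**
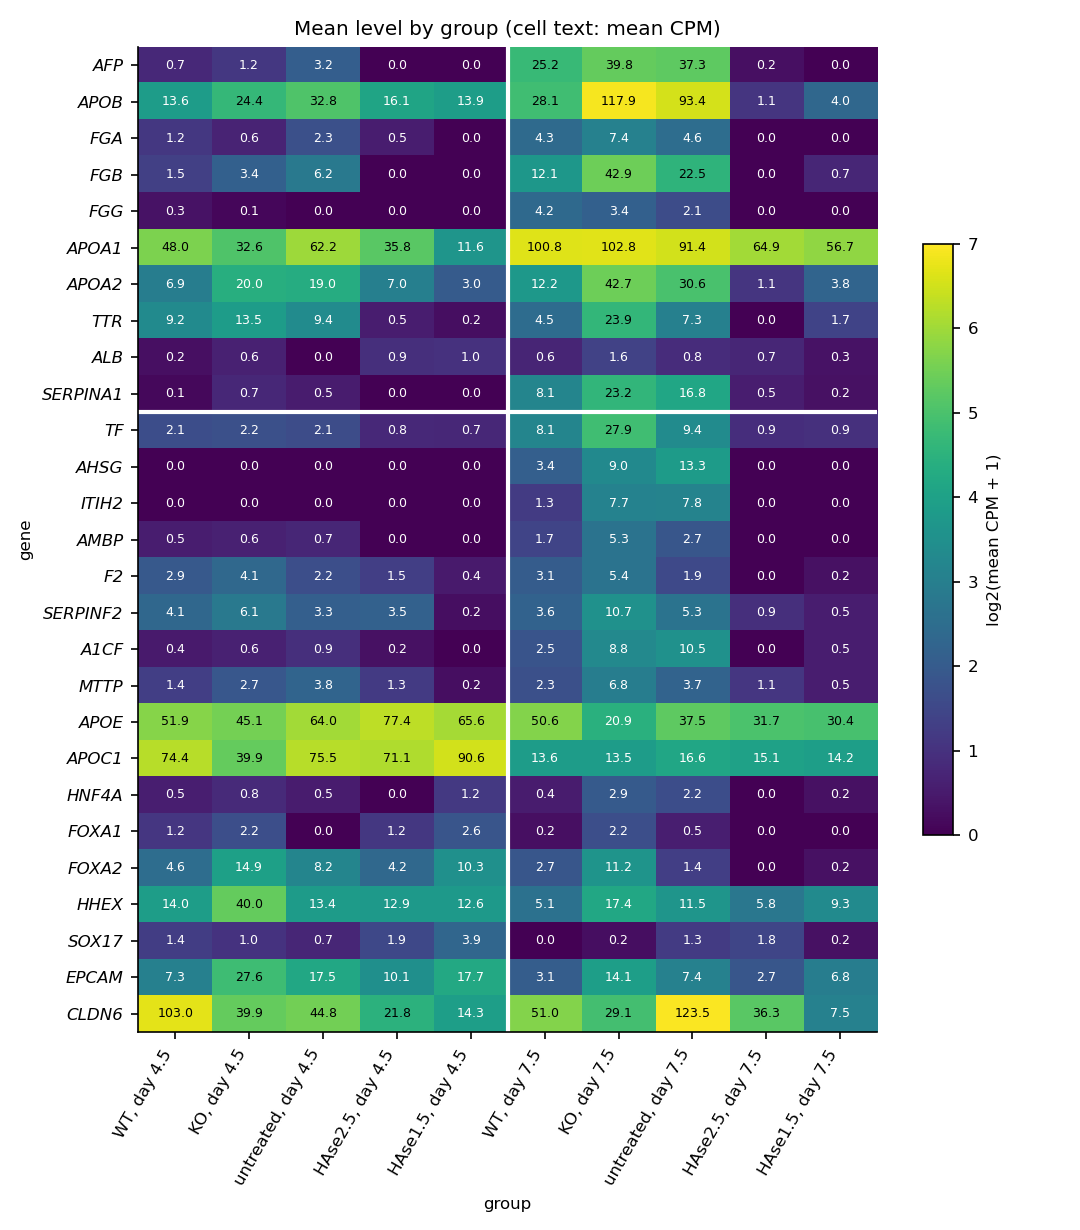
Mean CPM by group at days 4.5 and 7.5 (columns) for the 10 genes (above the white line) and for other named plasma proteins, lipoprotein partners, regulators and endoderm markers (below), coloured by log2(mean CPM + 1). AFP, FGB, AHSG and ITIH2 are at or near 0 in the 2 enzyme columns of day 7.5 and read in WT, KO and untreated, while APOA1, APOE and APOC1 are present in every column.

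Within the list, libraries that were high for 1 gene tended to be high for the others. Over the 65 libraries Pearson's r of log2 CPM was 0.92 between AFP and SERPINA1, 0.89 between AFP and FGB, 0.87 between APOB and APOA2 and 0.87 between APOA2 and TTR. For ALB it was 0.38 to 0.56 with any other member. These points share days and depth, and the day 7.5 libraries that chose AFP, APOB and FGB are among them, so they describe the order of libraries. Among neighbours on the chromosome it was 0.40 for AFP with ALB, 0.89 for FGB with FGA and 0.71 for FGB with FGG.

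Likeness to AFP, APOB and FGB was taken over all 65 libraries, those of day 7.5 that chose these genes among them. The ranks, and the day 7.5 enzyme-arm values of the genes found so, are thus a description. Among 14040 other genes the pattern most like AFP over the 65 libraries was that of A1CF (r = 0.88), a subunit of the complex that edits APOB messenger RNA. TF (0.85), ITIH2 (0.83), MYPN (0.79) and CLIC5 (0.77) came next. FGB shared A1CF (0.84), TF (0.83), ITIH2 (0.80) and MYPN (0.78), with PRSS42P (0.79) between the last pair. A1CF was at 22.3, 1.91 and 7.42 CPM untreated at day 7.5, 0 to 1.39 under HAse1.5, 0 in HAse2.5 and 4.56 to 13.2 CPM in KO. APOB was most like CAMK2D (0.77), a kinase of heart muscle, TMEM47 (0.77), STYXL2 (0.77), ENSG00000285543 (0.76) and DPY19L2P1 (0.76). CAMK2D was at 179 to 206 CPM untreated, 82.3 to 88.4 under HAse1.5 and 99.3 to 163 under HAse2.5 at day 7.5, and at 147 to 182 CPM in KO against 140 to 199 CPM in WT. The KO and WT ranges of CAMK2D overlapped, and those of APOB did not.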

How the data were processed

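Read counts per gene were deposited by the authors in 1 table for all 65 libraries, made with featureCounts of Subread 1.6.2 against hg38, per the submitters' processing notes. They come from QuantSeq 3′ libraries, per the labels. The aligner, the strand setting and the handling of multimapping reads are not given in the sources used here. In the same table, 4 columns belong to no listed sample and were not used. All 58735 gene IDs matched GENCODE 29.

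CPM values are counts over the library total (831062 to 3574843, median 1570954), scaled to 1000000. Folds of mean CPM against a group at 0 are lower bounds against 3 counts over the group, and 95% exact intervals cover counting error only. Tests used edgeR 4.0.16 in R 4.3.3 (quasi-likelihood, TMM, a minimum count of 10 in filterByExpr, 1 mean a group) over the genotype arm (13797 genes) and the enzyme arm (12748 genes) separately. Benjamini-Hochberg adjustment covered every gene in the fit, and 0.05 was the threshold. Of the 10 genes, 8 passed the filter in the genotype arm and 5 in the enzyme arm (AFP, APOB, FGB, APOA1 and APOA2), in part through the groups where they are high. The edgeR fit was run on simulated counts for KO against WT at day 7.5 and for HAse1.5 against untreated at day 4.5. Their spread was fixed and equal for every gene, so they do not check genes as variable or as close to 0 as these.

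Alternatives were RLE factors, DESeq2 1.42.0, no low-count filter, only the groups compared, a replicate block and each library left out. In the enzyme arm the labels give the line of each library, which pairs groups. Libraries of the same line and day correlated in their deviations from group means above 0.1 in 15 of 21 pairs (−0.078 to 0.421). Library numbers come in 3 runs (A, B and C), which are not stated to be batches. Whether libraries of a group come from separate cultures is stated only as at least 3 biological replicates a condition, per the labels.

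The 10 genes and all lists were chosen with earlier results of these data known. Genes of other lists are named where they passed a test described (up to 4 a list), define a cell type, or are known regulators or assembly partners. Genes like AFP, APOB and FGB are the 5 with the highest Pearson's r of log2 CPM (prior count 2) over 65 libraries. A few genes of these lists are not reported here.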

Additional observations from a re-analysis of the deposited data

Results flagged for a closer look

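FGB in the KO group of day 4.5 had 1 library far above the other 5: cl14_R1 read 11.4 CPM (16 counts), and the next was 3.67 CPM. The gap was 0.678 of the whole range of the group. Chance would flag about 1 in 20 groups of this size if values were normally spread, which these low counts need not be. In all, 12 combinations of a gene and a group with at least 30 counts were looked at. Without this library the rise of FGB in KO from day 4.5 to day 7.5 had a log2 fold change of 4.62 (edgeR adjusted p = 5.74e-05), against 3.75 with it. The rise from day 2.5 to day 4.5 had 4.73 (edgeR adjusted p = 0.00292) against 5.59. FGB entered these fits through the day 7.5 libraries, so the p-values are given as a description.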

How the results depend on the processing

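Of the results recomputed under each alternative, 815 kept their direction and side of the threshold or stayed within the spread, 44 lost a call, 21 gained one, 67 moved and 2 reversed. With only the groups compared, fewer members passed the filter: the number called was 0 of 0 tested for the step from day 1.5 to 2.5 in WT and KO, 1 of 1 and 3 of 3 from day 2.5 to 4.5 in WT and KO, 1 of 5 from day 4.5 to 7.5 in WT, 0 of 2 for HAse1.5 at day 4.5, and 1 of 7 (TTR) for KO against WT at day 7.5. Under HAse1.5 at day 4.5 the number called was 4 without the low-count filter, 2 with the replicate block by line and 2 with DESeq2, against 1, and under HAse2.5 it was 1 without the filter, against 0. In WT from day 1.5 to 2.5 it was 2 with the replicate block by library-number run and 2 with DESeq2, against 1. The block moved no other count of members called by over 1.5 times. In the genotype arm the same run and day correlated above 0.1 in 26 of 37 pairs (−0.067 to 0.796). Leaving out 1 library gave 0 to 2 called under HAse1.5 at day 4.5, 1 to 2 in WT from day 1.5 to 2.5, and 1 to 5 for the untreated step from day 2.5 to 4.5. Shares over all genes are not given for these alternative fits, so nothing is read from the counts themselves. The cause of these changes was not tested.

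At day 7.5 the untreated over HAse1.5 ratio ranged over all alternatives from 19.0 to 69.1 for AFP, 8.09 to 33.5 for APOB, 13.9 to 40.7 for FGB, 3.17 to 35.7 for APOA2, 2.51 to 8.76 for TTR, 13.9 to 85.9 for SERPINA1 and 1.36 to 1.99 for APOA1. Each library was also left out of the day 4.5 ratios, a choice made after seeing the data. Without the untreated TNNI1 library the untreated over HAse2.5 ratio turned from 1.74 to 0.986 for APOA1 and from 2.70 to 0.562 for APOA2, and their ranges were 0.986 to 2.32 and 0.562 to 7.14. The day 4.5 ratios of AFP, APOB, FGA, FGB and TTR, and those of APOA1 and APOA2 under HAse1.5, kept their direction whichever library was left out. The geometric mean of within-line ratios could be taken only where no library was at 0, and gave 61.2 for APOB under HAse2.5. Depth limits FGG, ALB and FGA most, which had at most 17 counts in any group of the enzyme arm.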
